A study of Mus musculus with 2 samples.

Results

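The genes described here encode surface molecules with which endothelium captures leukocytes and lets them pass: the selectins Sele and Selp, the immunoglobulin family members Icam1, Icam2, Vcam1, Pecam1, Madcam1 and Mcam, the sialomucin Cd34, and Cd99l2. They were chosen by gene symbol, and all 10 had 1 probe set each among the 22206 gene probe sets of the array. F2 is a mouse vascular endothelial line that arose from a UV-induced tumor on a mixed BALB/c and C57BL/6 background. F2 cells were transfected with hBACCS2, a fusion protein that opens the Ca2+ channel ORAI1 under blue light. Cells labelled blue light positive were lit at 470 nm and about 0.4 mW/mm2 over 4 h, 2 min at a time with pauses of 18 min, and cells labelled blue light negative served as the comparison. The sources disagree on the latter: the sample labels and the paper describe hBACCS2 without light, the series design text says that the control did not have hBACCS2, and a treatment note given for both samples describes irradiation. The description of the sample labels is used here. RNA of each condition was hybridized to 1 Clariom S array, so no difference has a replicate and no p-value is given. Only part of the cells take up the plasmid in such a transfection, so each signal is an average over cells with and without hBACCS2.

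Leukocytes leave the blood in steps. Selectins on the endothelium hold passing cells loosely so that they roll, ICAM and VCAM proteins bind leukocyte integrins and stop them, and PECAM-1, CD99-like proteins and their partners at the cell border let them through. E-selectin, P-selectin, ICAM-1, VCAM-1 and MAdCAM-1 are known as proteins that inflammatory cytokines induce, largely through the transcription factor NF-κB, whereas ICAM-2, PECAM-1 and CD34 are known as constitutive.

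For context, the bases before the start site are shown for the 4 cytokine-inducible members that have an entry in the RefSeq promoter table (GRCm38.p6, all on the plus strand, 250 bases ending at the base before the start). Capitals mark matches to GGNNNTTCC on either strand, letters that many NF-κB sites share. The letters were chosen after these windows had been read.
Sele chr1:164047984-164048233: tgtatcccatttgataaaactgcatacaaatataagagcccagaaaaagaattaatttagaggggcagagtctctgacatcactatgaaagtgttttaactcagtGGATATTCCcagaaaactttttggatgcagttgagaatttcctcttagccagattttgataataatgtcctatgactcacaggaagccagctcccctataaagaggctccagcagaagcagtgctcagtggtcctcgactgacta
Selp chr1:164115014-164115263: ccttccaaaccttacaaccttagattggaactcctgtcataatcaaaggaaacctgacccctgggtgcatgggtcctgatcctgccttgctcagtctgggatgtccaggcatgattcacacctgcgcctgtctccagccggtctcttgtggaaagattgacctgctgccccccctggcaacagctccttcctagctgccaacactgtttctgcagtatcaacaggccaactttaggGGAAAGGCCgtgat
Icam1 chr9:21015690-21015939: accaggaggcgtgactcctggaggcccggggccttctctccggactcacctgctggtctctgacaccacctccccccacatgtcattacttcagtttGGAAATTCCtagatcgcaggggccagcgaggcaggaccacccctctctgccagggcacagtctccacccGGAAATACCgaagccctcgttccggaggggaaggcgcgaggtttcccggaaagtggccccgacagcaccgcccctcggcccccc
Madcam1 chr10:79664309-79664558: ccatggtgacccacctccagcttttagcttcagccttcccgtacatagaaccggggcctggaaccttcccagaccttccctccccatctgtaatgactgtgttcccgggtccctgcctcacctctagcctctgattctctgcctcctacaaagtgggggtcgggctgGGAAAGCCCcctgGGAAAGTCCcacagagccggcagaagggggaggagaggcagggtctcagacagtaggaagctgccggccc
Of the 7 members with a window in the table, these 4 held the letters, Icam1 and Madcam1 at 2 positions each, beside 15.7% of all 32851 windows of that length. The Sele match began 145 bases before the start, that of Selp 14 bases, those of Icam1 153 and 84 bases, and those of Madcam1 83 and 70 bases. The AP-1 letters TGANTCA, searched on both strands, were found in Sele and Selp, 73 and 139 bases before the start, and in 6.75% of all windows. The letters GGAAA, which NFAT sites contain and which can overlap GGNNNTTCC, were in all 7 windows and in 55.6% of all windows on either strand. A match of letters is a description and not a binding site.

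None of the adhesion molecule genes changed past the cutoff of the study, a ratio of blue light over no blue light above 2 or under 0.5 with a signal over 24 on both arrays. Of the 10 genes, 8 passed the signal cutoff. Past the fold were 0 of these 8 upward, beside 0.958% of the 11695 gene probe sets over the same signal cutoff, and 0 downward, beside 1.37%. At a lower fold cutoff of 1.5, 0 of the 8 were higher, beside 7.55% of those probe sets, and 0 were lower, beside 8.47%. With 8 genes, counts of 0 lie near these shares, and they are not a result particular to the adhesion molecules. The log2 ratios of the 8 genes were above 0 for 4 and below 0 for 4, with a median of -0.0014, beside -0.01 for all probe sets over the signal cutoff. Their median size irrespective of direction was 0.26, beside 0.27 for all of those probe sets.

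**Figure D1:**
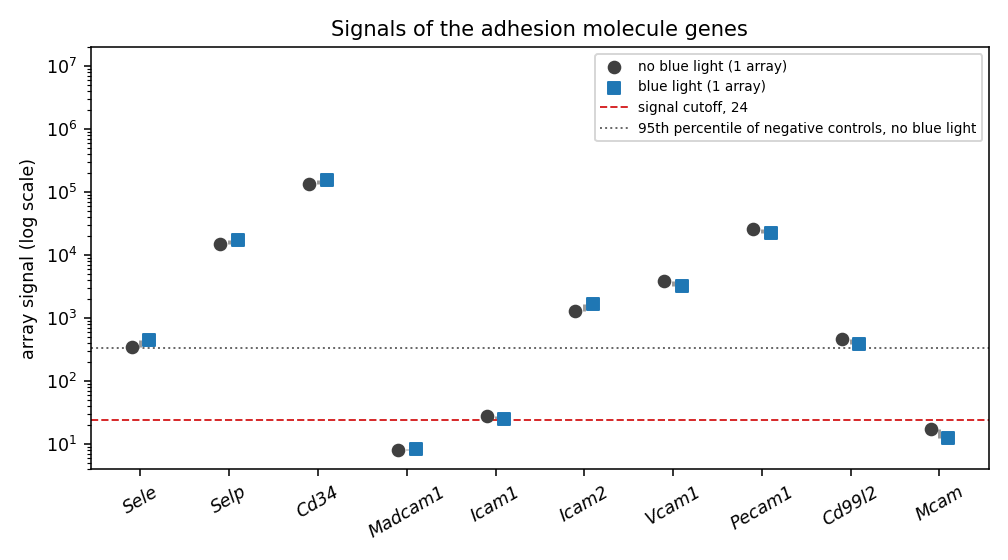
Array signal (y axis, log scale) of each of the 10 genes (x axis, in order of rolling, arrest and passage), without blue light (grey circles) and with blue light (blue squares), 1 array each. The paired points lie close together for every gene, Madcam1 and Mcam lie under the signal cutoff of 24 (dashed line) and Icam1 lies at it; the dotted line is the 95th percentile of the negative control probes without blue light, 333.

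The 3 rolling molecules over the signal cutoff had ratios a little above 1, none past the fold. Sele, which encodes E-selectin, gave 348 on the array without light and 446 on the irradiated one, so the ratio was 1.28. Of the 500 probe sets nearest in mean signal, 36.4% moved at least as far in either direction, and the middle 95% of their ratios ran from 0.583 to 1.77. The Sele difference was therefore well inside the spread of like probe sets. That spread runs across genes and does not measure error between arrays, which 1 array per condition cannot give. The paper reports that, by its quantitative PCR, a Ca2+ increase alone did not suffice to raise E-selectin. The signals of Sele exceeded 95.2% of the 5222 negative control probes without blue light and 96.2% with it. These signals lay near the upper end of the spread of those probes. The median gene probe set read 31.4 without and 32.4 with blue light.

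Selp, which encodes the P-selectin that endothelial cells store in Weibel-Palade bodies, read 15131 without and 17419 with light, at a ratio of 1.15. Cd34, whose protein can present sugar ligands to L-selectin where it is suitably glycosylated, read 135178 and 155171, again at a ratio of 1.15. Both genes were read far above the negative controls on each array, with Selp over 99.3% and Cd34 over 99.8% of them. For Selp the middle 95% of ratios of the nearest probe sets ran from 0.582 to 1.53, and for Cd34 from 0.639 to 1.42. Madcam1, which encodes the addressin of gut venules, had signals of 8.05 and 8.46, under the cutoff and under most negative controls on both arrays. No ratio is given for it, and expression was not detectable.

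Molecules of arrest did not move together. Icam1, the ligand of the leukocyte integrins LFA-1 and Mac-1, had signals of 28.3 without and 24.6 with blue light, both near the cutoff of 24. These exceeded 52.6% and 47.2% of the negative controls, so the level of Icam1 could not be told from background and its ratio of 0.870 carries little information. The middle 95% of ratios of the probe sets nearest to it ran from 0.50 to 2.14. Beside its quantitative PCR, the paper states that ICAM-1 was not detectable. Icam2, a second LFA-1 ligand that resting endothelium carries, read 1295 and 1654, at a ratio of 1.28, and 34.8% of the nearest probe sets moved as far. Vcam1, the ligand of the leukocyte integrin VLA-4, read 3936 and 3209, at a ratio of 0.815, and 39.8% of the nearest probe sets moved as far. Icam2 was thus on the higher side and Vcam1 on the lower side, each within the spread of its neighbors in signal. The signals of both exceeded about as many negative controls with light as without, 98.0% and 98.3% for Icam2 and 99.1% and 98.8% for Vcam1.

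Pecam1 and Cd99l2, molecules of passage over the cutoff, had ratios a little under 1. Pecam1, whose protein joins endothelial borders and binds PECAM-1 on leukocytes, had signals of 26121 and 22321, a ratio of 0.855. Cd99l2, a relative of CD99 that acts in the passage of neutrophils in mice, read 475 and 388, at a ratio of 0.818. The signals of Cd99l2 exceeded 96.3% of the negative controls without blue light and 95.7% with it, near the upper end of their spread. Of the probe sets nearest in signal, 43.4% moved as far as Pecam1 and 44.4% as far as Cd99l2, so neither difference stood out. Mcam, which encodes the border molecule CD146 found on most endothelium, had signals of 17.2 and 12.3, under the cutoff on both arrays. Expression of Mcam was therefore not detectable, and no ratio is given.

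**Figure D2:**
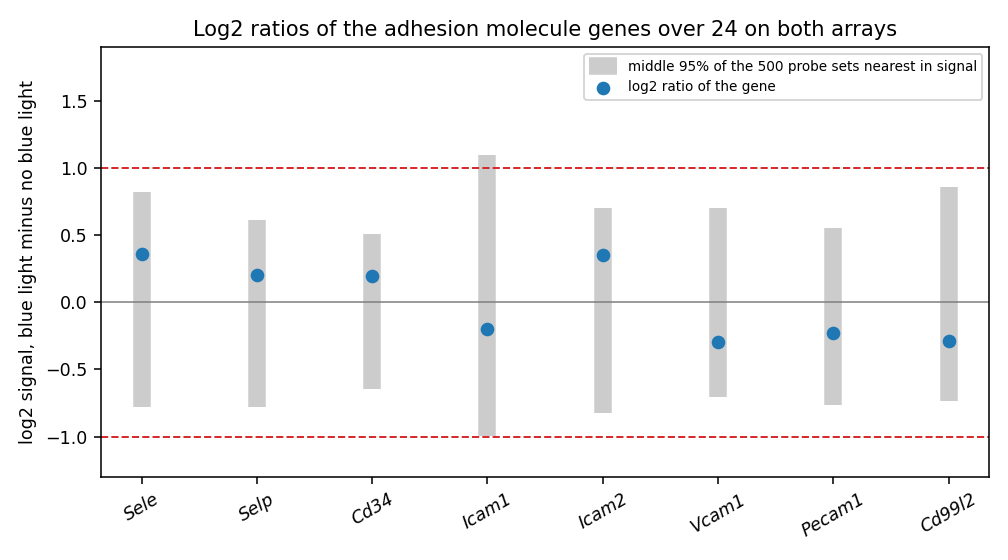
Log2 signal with blue light minus no blue light (y axis) of the 8 genes over the signal cutoff (x axis); each point is the difference between 1 array and 1 array, and grey bars are the middle 95% of the log2 ratios of the 500 gene probe sets nearest in mean signal. All 8 points lie within their bars and between the dashed fold cutoffs, the widest bar being that of Icam1.

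By what is known of their regulation, the 5 cytokine-inducible genes and the other 5 did not separate. Of the inducible ones, 4 passed the signal cutoff, with Sele and Selp above 0 and Icam1 and Vcam1 below, and a median log2 ratio of 0.00. Of the others, 4 passed, with Icam2 and Cd34 above 0 and Pecam1 and Cd99l2 below, and a median of -0.01. Grouped by step, the 3 rolling genes had log2 ratios from 0.20 to 0.36, and the 3 passage genes, with Icam2 counted among them as well, from -0.29 to 0.35. Among all 11695 probe sets over the cutoff, 37.6% moved at least as far as Sele, which had the largest log2 ratio in size of the 8 adhesion genes over it. The order of these small ratios is therefore not resolved.

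**Figure D3:**
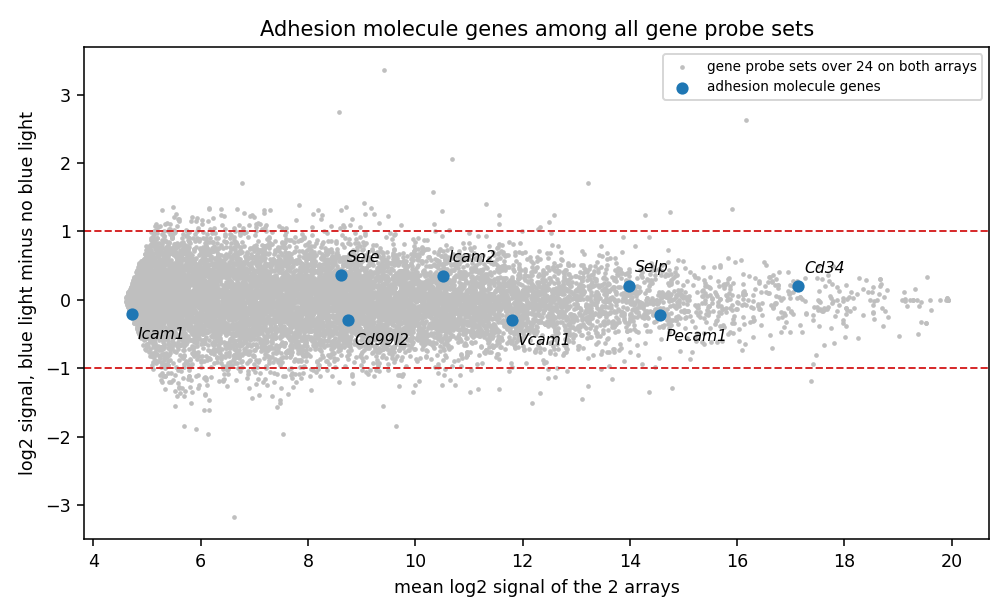
Log2 signal with blue light minus no blue light (y axis) against mean log2 signal of the 2 arrays (x axis) for the 11695 gene probe sets over 24 on both arrays (grey) and the 8 adhesion molecule genes among them (blue). The 8 genes span the signal range and lie within the body of the cloud, with log2 ratios from -0.29 to 0.36; dashed lines are the fold cutoffs, and the narrowing at the left edge comes from the signal cutoff.

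The endothelial identity of the cells was checked with 17 measured markers, of which 15 were over the signal cutoff, among them Cdh5 with signals of 284467 and 231925, while Cldn5 and Mmrn2 were under it. Their median log2 ratio was -0.22, with 0 higher and 0 lower past the fold, beside 0.958% and 1.37% of all probe sets over the cutoff. At a fold of 1.5, 4 of the 15 were lower, beside 8.47%, and 0 higher, beside 7.55%. The lowest was the VEGF receptor gene Flt1 with a ratio of 0.547 and the highest Vwf, which encodes the main protein of Weibel-Palade bodies, with a ratio of 1.48 from a dim signal of 27.8. Leukocyte and platelet markers had 2 of 9 measured genes over the cutoff, Lyz2 and the platelet gene Itga2b, with ratios of 0.871 and 0.833. The summed signal of the 9 was 299 without and 259 with blue light, of which Itga2b gave 141 and 118. The pan-leukocyte gene Ptprc had signals of 12.3 and 15.3. Fibroblast and smooth muscle markers had 3 of 8 over the cutoff, with summed signals of 238 and 216, the extremes being Col1a1 at a ratio of 0.636 and Acta2 at 1.13. Of 6 epithelial markers Krt8 alone was over it, with signals of 25.5 and 41.9, and the sums were 72.1 and 92.6. The part of other cells in the adhesion gene signals was not tested.

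Other endothelial surface molecules of adhesion and passage were likewise within the cutoff. Of 33 measured genes 24 passed the signal cutoff. Past the fold, 0 were higher and 0 lower, beside 0.958% and 1.37% of all probe sets over the cutoff, so these counts lie near the shares. The log2 ratios were above 0 for 14 and below 0 for 10, with a median of 0.07. Counts at a fold of 1.5 were 1 higher and 1 lower, beside 7.55% and 8.47% of all probe sets over the cutoff. The highest was Pvr, the poliovirus receptor at endothelial borders, from 822 to 1373, a ratio of 1.67, and the lowest was the proteoglycan gene Sdc2, from 83.7 to 54.1, a ratio of 0.646. Named for their roles after their values were seen, Cd99, the relative of Cd99l2, had signals of 121 and 139, and F11r, which encodes the junctional molecule JAM-A, had 2616 and 2746. Podxl and Emcn, sialomucins like CD34, had ratios of 0.998 and 1.18.

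Docking adaptors link ICAM-1 and VCAM-1 to actin under a bound leukocyte. Of 18 measured 17 passed the signal cutoff, with 0 past the fold and a median of -0.07. All counts of 0 past the fold in this paragraph stand beside 0.958% higher and 1.37% lower among all probe sets over the cutoff. They lie near those shares. The extremes were Arhgef26, a RhoG exchange factor that binds ICAM-1, from 33.6 to 55.6, and the actin crosslinker gene Actn4, from 240137 to 137674. Counts of the adaptors at a fold of 1.5 were 1 higher and 1 lower, beside 7.55% and 8.47% of all probe sets over the cutoff. Enzymes that build the sugar ligands of selectins had 13 of 17 over the cutoff, with 0 past the fold and a median of -0.15. At a fold of 1.5, 3 of the 13 were lower, beside 8.47% of all probe sets over the cutoff, and 0 higher, beside 7.55%. The lowest, Gcnt1, which starts the branched O-glycans on which such ligands sit, had a ratio of 0.578, and the highest, the sulfotransferase gene Chst1, 1.28. Shedding proteases and their inhibitors, which govern cleavage of adhesion molecules from the surface, had 8 of 9 over the cutoff, with 0 past the fold and a median of -0.02. Here Timp3, an inhibitor of the VCAM-1 sheddase ADAM17, went from 2000 to 1087, a ratio of 0.543, and Timp1 had the highest ratio, 1.28. Counts of this list at a fold of 1.5 were 0 higher, beside 7.55%, and 1 lower, beside 8.47%.

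Leukocyte counter-receptors were mostly at background, as 2 of 12 measured genes passed the signal cutoff. Of these 2, 1 was higher past the fold, beside 0.958% of all probe sets over the cutoff, and 0 were lower, beside 1.37%. Itgb7, whose integrin subunit is part of the receptor for MAdCAM-1, read 437 in the dark and 951 under irradiation, so that its ratio of 2.17 was past the fold. The 95th percentile of the negative controls was 333 in the dark, so the Itgb7 signal there was near the upper end of their spread. Itgb1, the common beta subunit that also belongs to VLA-4, had signals of 16638 and 15110, a ratio of 0.908. Itga4, which encodes the alpha partner of both subunits, had signals of 19.8 and 27.4 and did not pass the cutoff. With the signal cutoff on both arrays, Itgb7 was the only gene of the lists given here to be higher past the fold, on 1 array per condition.

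Transcription regulators of adhesion genes had a median log2 ratio of -0.36 over 24 of 26 measured genes, beside -0.01 for all probe sets over the cutoff. Of the 24, 7 were above 0 and 17 below, beside 48.5% of all probe sets over the cutoff above 0. Past the fold, 1 was lower, beside 1.37%, and 0 were higher, beside 0.958%. At a fold of 1.5, 7 were lower and 2 higher, beside 8.47% and 7.55%. The lower one was Klf2, a flow-induced factor known to restrain Vcam1 and Sele in endothelium, from 138 to 35.6, a ratio of 0.257. Both Klf2 signals were under the 95th percentile of the negative controls, 333 without and 324 with blue light. The signal with blue light was near the background level. The highest was Rel, which encodes an NF-κB subunit, from 96.2 to 163, a log2 ratio of 0.76. Named after its value was seen, Rela, the main NF-κB subunit gene in endothelium, had a ratio of 0.659. Earlier results of these data had shown low values of endothelial transcription factors, some of which are in this list. The median and the counts of this list are therefore not independent of them.

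**Figure D4:**
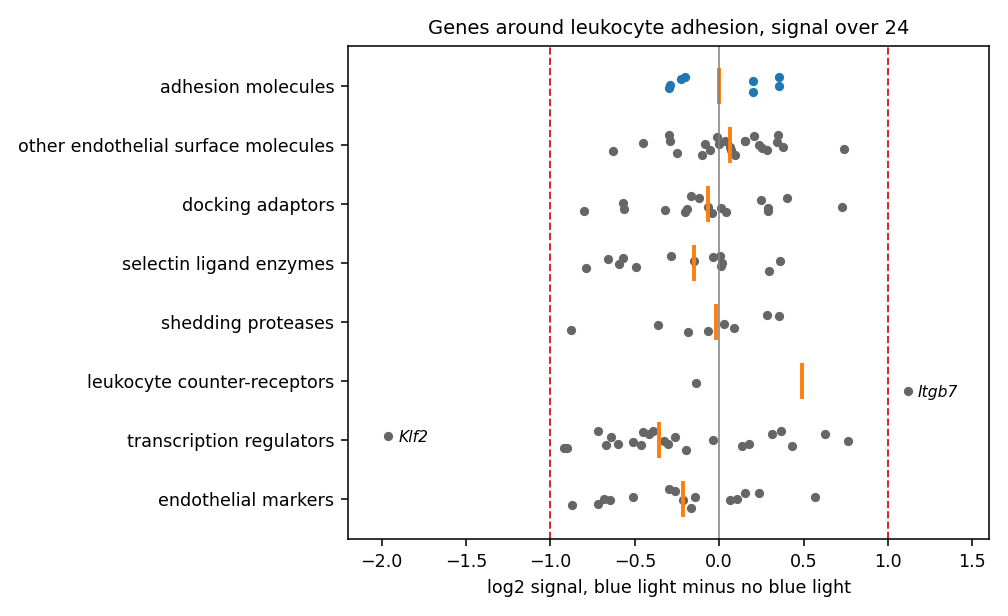
Log2 signal with blue light minus no blue light (x axis) of each gene over 24 on both arrays (points), by list (y axis, vertical jitter for visibility), with the median of each list in orange; blue points are the 8 adhesion molecule genes. The adhesion genes lie from -0.29 to 0.36, and Itgb7 at 1.12 and Klf2 at -1.96 are the points past the dashed fold cutoffs.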

How the data were processed

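Signals of 2 Clariom S mouse arrays, 1 per condition, were used. Labelled cDNA was hybridized, and the values deposited by the authors are log2 signals normalized in the Microarray Data Analysis Tool. Its methods of normalization and background correction, not given in the sources used here, are unknown. Signals are the antilogs of these values. Gene probe sets numbered 22206 and control rows 6640, and the latter were left out of counts. The platform annotation pairs 19572 gene probe sets with 1 symbol, 0 with several and 2634 with none. Median signals of gene probe sets were 31.4 without and 32.4 with blue light, and those of the negative controls 26.2 and 26.5. The 8 spiked transcripts had log2 ratios from -0.22 to 0.11.

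Ratios were taken from the deposited values per probe set. The study's cutoffs were used, that is a fold above 2 or below 0.5 and signals over 24, read here as both arrays. The spread of ratios among the 500 gene probe sets nearest in mean log2 signal, with those under 24 included, is a description and not a test. Precision is limited by the number of arrays. Members and lists were chosen with earlier results of these data known. Named were all members and, for each of 10 other lists, every gene past the cutoff and its highest and lowest. Some genes named outside this rule are said to be so where they appear. Cdh5, Cldn5, Mmrn2, Ptprc, Itga4, Podxl, Emcn, Icam4, Icam5, Cbl, Rnf26, Ccdc153 and Cdc34 were also named after their values were seen. Of the listed genes, 11 list entries had no named probe set. Alternatives were 3 scalings (loess span 0.3), other signal cutoffs, a fold of 1.5, 24 added to both signals and the mean per symbol. Motif letters were searched in 250 bases before RefSeq start sites. The steps were tested on simulated data. Python 3.11.15, numpy 2.4.6, pandas 2.3.3 and statsmodels 0.14.6 were used.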

Additional observations from a re-analysis of the deposited data

How the results depend on the processing

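The counts of adhesion genes past the fold were 0 upward and 0 downward under all 9 alternatives, which were median, quantile and loess scaling, a signal over 24 on either array, no signal cutoff, a signal over 100 on both arrays, the mean per gene symbol, a fold cutoff of 1.5 and 24 added to both signals. The median log2 ratio ranged from -0.07 with no signal cutoff to 0.20 with a signal over 100 on both arrays, where 7 genes were left and Icam1 was not among them. All 8 genes kept the sign of their log2 ratio under the 3 scalings, with 24 added and per gene symbol, and moved by at most 0.10. Itgb7 kept its call under all 9 alternatives. Klf2 lost its call with a signal over 100 on both arrays, since its signal with blue light was 35.6, and kept it under the other 8. The median of the shedding proteases, -0.02, was 0.01 under quantile scaling, 0.03 under loess scaling and 0.02 with no signal cutoff. With no signal cutoff, 1 of the other surface molecules was higher past the fold, Glycam1, at signals of 9.34 and 22.8, both under the cutoff, and it was named after its values were seen. No paired analysis was possible because there was 1 array per condition. With 1 array each, the error of a difference could not be estimated, whether it lay inside or outside the spread of probe sets of like signal. Icam1, Madcam1 and Mcam were also limited by background.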

Other observations

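The genes beside the adhesion molecules on the chromosome were also read. Within 2 protein-coding genes on either side in the RefSeq annotation of GRCm38.p6, 31 other genes were measured and 22 passed the signal cutoff on both arrays. Their median log2 ratio was 0.16, beside -0.01 for all probe sets over the cutoff. Of these 22, 0 were higher and 1 was lower past the fold, beside 0.958% and 1.37% of all probe sets over the cutoff. A count of 1 among 22 genes is not read as a result about the neighbors. The lower one was BC055324 beside Sele, from a signal of 226 to 109. It was named after its value was seen. The highest log2 ratio among the 22 was 0.95, that of Cdc34 beside Madcam1, from a signal of 193 to 374. Of the measured neighbors of Mcam, Cbl had signals of 563 and 318 and Rnf26 of 849 and 511. Ccdc153, also beside Mcam, had signals of 19.8 and 38.4 and did not pass the cutoff on both arrays. Icam4 and Icam5, which follow Icam1, were not over the cutoff on both arrays, with signals of 4.24 and 6.61 for Icam4 and 14.4 and 28.5 for Icam5.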
